A study of Mus musculus with 7 samples.

Results

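Potassium channel subunit genes were followed in single-cell RNA-seq of the mouse ventricular-subventricular zone (V-SVZ), the germinal region along the lateral ventricles. The members were all genes in the count tables whose symbol begins with Kcn. Kcnip1 to Kcnip4, which encode calcium sensors, were left out, as were the non-coding transcripts Kcnq1ot1, Kcnd3os, Kcnmb4os1, Kcnmb4os2 and Kcnab3os. This gave 90 members of 99 such symbols, among 32285 genes: 40 subunits of voltage-gated channels, 15 inward rectifiers, 14 tandem-pore channels (the Kcnk family), 12 calcium- or sodium-activated channel subunits and 9 auxiliary genes. The rule uses symbols only and was set with earlier results of these data known.

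Dissected lateral walls of mice aged P31 to P33, of both sexes, were profiled in 7 libraries with 2 to 3 mice pooled in each. The 3 control libraries came from Prdm16 fl/fl littermates without Cre. The 3 Prdm16 cKO libraries came from hGFAP-Cre+/-; Prdm16 fl/fl mice. The single Prdm16-Vcam1 DKO library came from mice that carried the same Cre and Prdm16 alleles and were also Vcam1 fl/fl. All mice in the 7 libraries therefore carried floxed Prdm16 alleles. hGFAP-Cre is active in astrocytes and in embryonic radial glia, whose recombined alleles pass to the cells born from them. A change in any neural type may therefore have arisen at an earlier stage. Because mice were pooled, p-values measure the spread between libraries, and the DKO is given as values with no test.

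After filtering, 1868 to 9502 cells per library remained, 43346 in all, with a median of 4960 to 8318 transcripts (unique molecular identifiers, UMIs) per cell. cKO 2 and cKO 3 stood apart in that 49.8% and 47.2% of their barcodes passed the filters, against 70.2% to 74.7% in the other libraries. Libraries shared at most 1.48% of their cell barcodes. Cells were clustered without any Kcn gene and named from other markers, as "NSC-like" and so on. The 11 types were neural stem cells (NSCs), astrocytes, transit-amplifying progenitors (TAPs), neuroblasts, neurons, ependymal cells, oligodendrocyte precursor cells (OPCs), oligodendrocytes, endothelial cells, mural cells (pericytes and smooth muscle) and microglia. The OPC-like class was 1 cluster that the naming rule called newly formed oligodendrocyte, with OPC as the second name, and that was relabelled OPC-like. The mural-like class held a cluster with markers of both pericytes and smooth muscle. The other classes had their defining markers raised. In endothelial-like cells the summed erythroid markers (16786 to 41221 CPM over the 7 libraries) nevertheless exceeded the endothelial ones (13311 to 17073), and in TAP-like cells of the controls the neuroblast markers (4113 to 4974) exceeded those of TAPs (2976 to 4023). In OPC-like cells the oligodendrocyte markers (13023 to 20575) exceeded those of OPCs (2521 to 3840). Prdm16, the targeted gene, was at 73.9, 62.2 and 67.9 CPM (UMIs of the gene per 1000000 UMIs) in NSC-like cells of controls 1 to 3, 55.0, 50.7 and 46.0 in cKO 1 to 3 and 55.3 in the DKO. In astrocyte-like cells the groups overlapped, at 52.39, 46.21 and 45.21 CPM in the controls, 46.89, 63.01 and 51.35 in the cKO and 46.6 in the DKO. These 3′ tags do not check the labels, because the floxed exon is not given in the sources used here.

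Potassium channels let potassium pass the membrane and so set the resting potential, end action potentials and carry potassium out of the extracellular space. Voltage-gated channels open on depolarisation, inward rectifiers and tandem-pore channels carry current near rest, and calcium-activated channels link potassium flow to intracellular calcium. In the brain, glial inward rectifiers take up potassium released by neurons, and in vessels potassium channels hyperpolarise contractile cells. Most pore-forming subunits share a selectivity filter, a short loop whose peptide signature is threonine, any residue, glycine, tyrosine or phenylalanine, glycine.

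The codons of that loop are shown because they are what the pore-forming members have in common. The coding strand of each GENCODE transcript was searched in frame for ACNNNNGGNTANGGN (tyrosine form) and ACNNNNGGNTTNGGN (phenylalanine form), which differ in 1 base and cannot match at the same codons, and a match was kept where the fourth codon encodes tyrosine or phenylalanine. In the lines that follow, from members the results turn on, capitals mark the glycine, tyrosine or phenylalanine, and glycine codons. A tandem-pore subunit carries the loop in each of its pore domains, so both are given where both matched.
Kcnj10: accatcGGCTATGGC
Kcnj16: accattGGATACGGT
Kcnj8: accattGGGTTTGGA
Kcnk1: accacaGGCTATGGC
Kcnk2, first pore: accataGGATTTGGA
Kcnk2, second pore: accattGGATTTGGA
Kcnk13, first pore: accataGGGTTTGGG
Kcnk13, second pore: accattGGCTTCGGG
Kcna1: actgtgGGATACGGT
Kcnd3: acactgGGATATGGA

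The signature was found in 66 of the 90 members (73.3%) and in 0.758% of the 21494 other protein-coding genes. It was found in 14 of 14 tandem-pore genes, 11 of which held it at least at 2 places, in 14 of 15 inward rectifiers, 33 of 40 voltage-gated genes and 5 of 12 calcium- or sodium-activated genes. None of the 9 auxiliary genes held it. Kcnj10 and Kcnj16 carry the tyrosine form and Kcnj8 the phenylalanine form of the same loop. A match is a description of these letters only.

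Kcnj10 lies at chr1:172341210-172374085 (mouse build GRCm38, plus strand), with Kcnj9 11892 bases away. Kcna1 at chr6:126640397-126646384 and Kcna6 at chr6:126708329-126740674, both on the minus strand, are 61945 bases apart, and Kcnj16 and Kcnj2 on chromosome 11 are 38196 bases apart. Kcnj8 lies at chr6:142564837-142571614 (minus strand), Kcnk1 at chr8:125995170-126030685 (plus strand) and Kcnd3 at chr3:105452330-105674002 (plus strand). Levels are UMIs per gene tagged near the 3′ end, so they carry no gene length term. They were summed over the cells of a type in a library and divided by the library's total for that type, in CPM.

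Of the 90 members, 58 reached a mean of 10 CPM in at least 1 type and 32 stayed under it in every type. Kcnk16 and Kcnk18 had 0 UMIs in the summed types, and 12 others had 1 to 100 UMIs. The 58 comprised 30 voltage-gated, 9 inward rectifier, 8 tandem-pore, 7 calcium- or sodium-activated and 4 auxiliary genes. Of these, 25 reached 10 CPM in 1 type only and 16 did so in 5 or more. The counts depend on that level: Kcnk3, among the 25, was at 9.99 CPM in its second type, neuron-like cells. In 35 of the 58 the 7 libraries of the highest type did not overlap those of the second highest, against 38.6% of the 13960 genes at that level. A gene passes that level through the type in which it is highest, so the count is a description. Neuron-like cells were the highest type for 28 of the 58, ependymal-like cells for 7, mural-like cells for 5 and oligodendrocyte-like cells for 4. The counts by number of types and by highest type are given without the share over all genes, so they only describe the members.

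**Figure D1:**
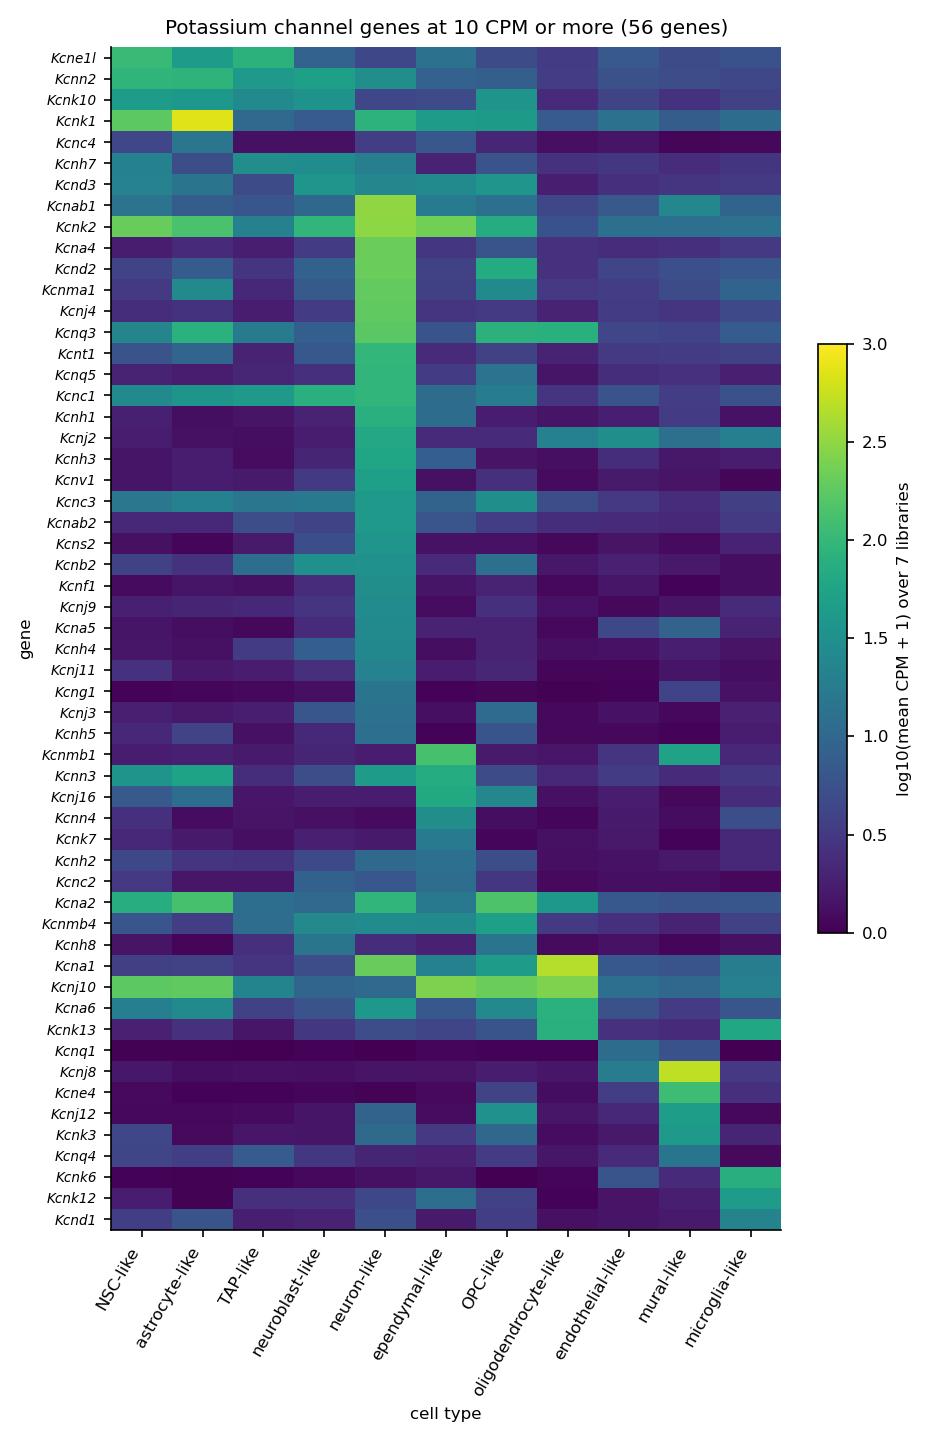
Mean level of 56 of the 58 potassium channel genes that reached 10 CPM in at least 1 type. Rows are genes, grouped by the type with the highest mean. Columns are the 11 cell types, and colour is log10(mean CPM + 1) over 7 libraries. The block of neuron-led genes, 26 of the 28, is the largest, while most glial and vascular types are led by 1 to 7 genes.

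The summed level of all members was highest in neuron-like cells, at a mean of 3457 CPM (3117 to 4620 over 7 libraries), and lowest in endothelial-like cells, at 205.8 CPM (156.7 to 284.6). Astrocyte-like cells followed neurons at 1713 CPM (1534 to 1847). Ependymal-like cells (1202), OPC-like cells (1146), NSC-like cells (1143) and oligodendrocyte-like cells (1091) had similar sums. TAP-like cells stood at 412 CPM (355.8 to 469.7), below every NSC-like library (950.3 to 1448).

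How the sum was divided differed between types. In oligodendrocyte-like cells 3 genes made up 74.0% of it (Kcna1 42.6%, Kcnj10 23.9%, Kcna6 7.51%). In mural-like cells Kcnj8 alone made up 52.8%, and in astrocyte-like cells Kcnk1 made up 41.4%. In neuron-like cells the 3 leading genes made up 24.3%. NSC-like cells drew 17.6% from Kcnk2, 15.3% from Kcnk1 and 15.2% from Kcnj10.

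Among the inward rectifiers, Kcnj10 encodes Kir4.1, the main potassium uptake channel of glia. Its level was 221.3, 244.6 and 341.0 CPM (lowest, median and highest of 7 libraries) in oligodendrocyte-like cells, 181.2, 273.1 and 296.1 in ependymal-like cells and 189.0, 213.7 and 238.1 in OPC-like cells. It was 152.9, 177.9 and 209.1 CPM in astrocyte-like cells and 111.4, 151.0 and 286.8 in NSC-like cells. Neighbours in this order overlapped between libraries, whereas the oligodendrocyte-like libraries all lay above the astrocyte-like ones. TAP-like (15.8 to 29.2 CPM), neuroblast-like (6.04 to 14.9) and neuron-like cells (3.12 to 12.4) all lay below them.

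Kcnj16 encodes Kir5.1, which forms heteromers with Kir4.1. It was at 57.0, 65.9 and 73.3 CPM in ependymal-like cells, 16.1, 22.1 and 35.9 in OPC-like cells and 4.50, 9.67 and 23.1 in astrocyte-like cells. The ependymal-like libraries all lay above those of every other type. However, the OPC-like class joined finer clusters, and the mean of the one led by Pdgfra, given below, lay just under the ependymal-like range. In oligodendrocyte-like cells, where Kcnj10 was high, Kcnj16 was at a mean of 0.382 CPM. Kcnj8, the pore subunit Kir6.1 of vascular ATP-sensitive channels, was at 415.9, 531.9 and 623.4 CPM in mural-like cells and at 12.4, 16.6 and 21.9 in endothelial-like cells, with no overlap. Mural-like cells held 95.8% of its level summed over the 11 types. Kcnj4 (Kir2.3) was largely neuronal, at 138.0, 169.8 and 272.7 CPM in neuron-like cells and a mean of 3.58 CPM in microglia-like cells, its second type.

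Kcnj2 (Kir2.1) was spread over several types, at a mean of 63.8 CPM in neuron-like (32.0 to 160.6), 29.9 in endothelial-like (13.98 to 43.7), 20.0 in oligodendrocyte-like and 18.6 in microglia-like cells. The neuron-like and endothelial-like libraries overlapped. Kcnj12 (Kir2.2) was at 45.2 CPM in mural-like cells (36.7 to 61.2) and 31.8 in OPC-like cells (22.5 to 47.0), which also overlapped. Of the G protein-gated rectifiers, Kcnj9 was at 27.1 CPM in neuron-like cells and 1.80 in neuroblast-like cells, without overlap, Kcnj3 was at 12.7 CPM in neuron-like and 10.2 in OPC-like cells, and Kcnj6 stayed below 10 CPM, with its highest mean of 2.70 CPM in OPC-like cells.

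Tandem-pore channels carry background potassium current. Kcnk1 (TWIK-1) was at 618.7, 703.9 and 787.2 CPM in astrocyte-like cells, at 127.2, 160.1 and 256.4 in NSC-like cells and at 74.1, 85.9 and 98.8 in neuron-like cells. The 3 types did not overlap, and 709 CPM in astrocytes was the highest type mean of any member. Kcnk2 (TREK-1), a channel opened by stretch and lipids, was shared instead, at 203.3, 330.3 and 395.2 CPM in neuron-like, 145.4, 210.5 and 319.4 in ependymal-like and 145.0, 195.2 and 294.6 in NSC-like cells. These 3 overlapped.

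Kcnk13 (THIK-1), known as the tonic potassium channel of microglia, was at 44.7, 53.6 and 95.5 CPM in microglia-like cells and at 49.3, 73.2 and 106.6 in oligodendrocyte-like cells, with overlap. Free oligodendrocyte RNA was not removed from these counts. Kcnk13 UMIs were 0.164 of Kcna1 UMIs in oligodendrocyte-like cells (7602 against 46439), 0.228 in endothelial-like cells, 0.277 in mural-like cells and 2.78 in microglia-like cells (331 against 119). Kcnk6 (TWIK-2), the channel of microglial and macrophage potassium efflux, was at 39.5, 73.0 and 94.0 CPM in microglia-like cells and at a mean of 4.999 CPM in endothelial-like cells, without overlap. Kcnk12, a relative of Kcnk13, was at 44.5 CPM in microglia-like cells (19.2 to 67.0) and 11.04 in ependymal-like cells (7.76 to 15.7), also without overlap. Kcnk10 (TREK-2) had close means of 43.0 CPM in NSC-like, 38.3 in astrocyte-like, 34.3 in OPC-like and 32.4 in neuroblast-like cells.

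**Figure D2:**
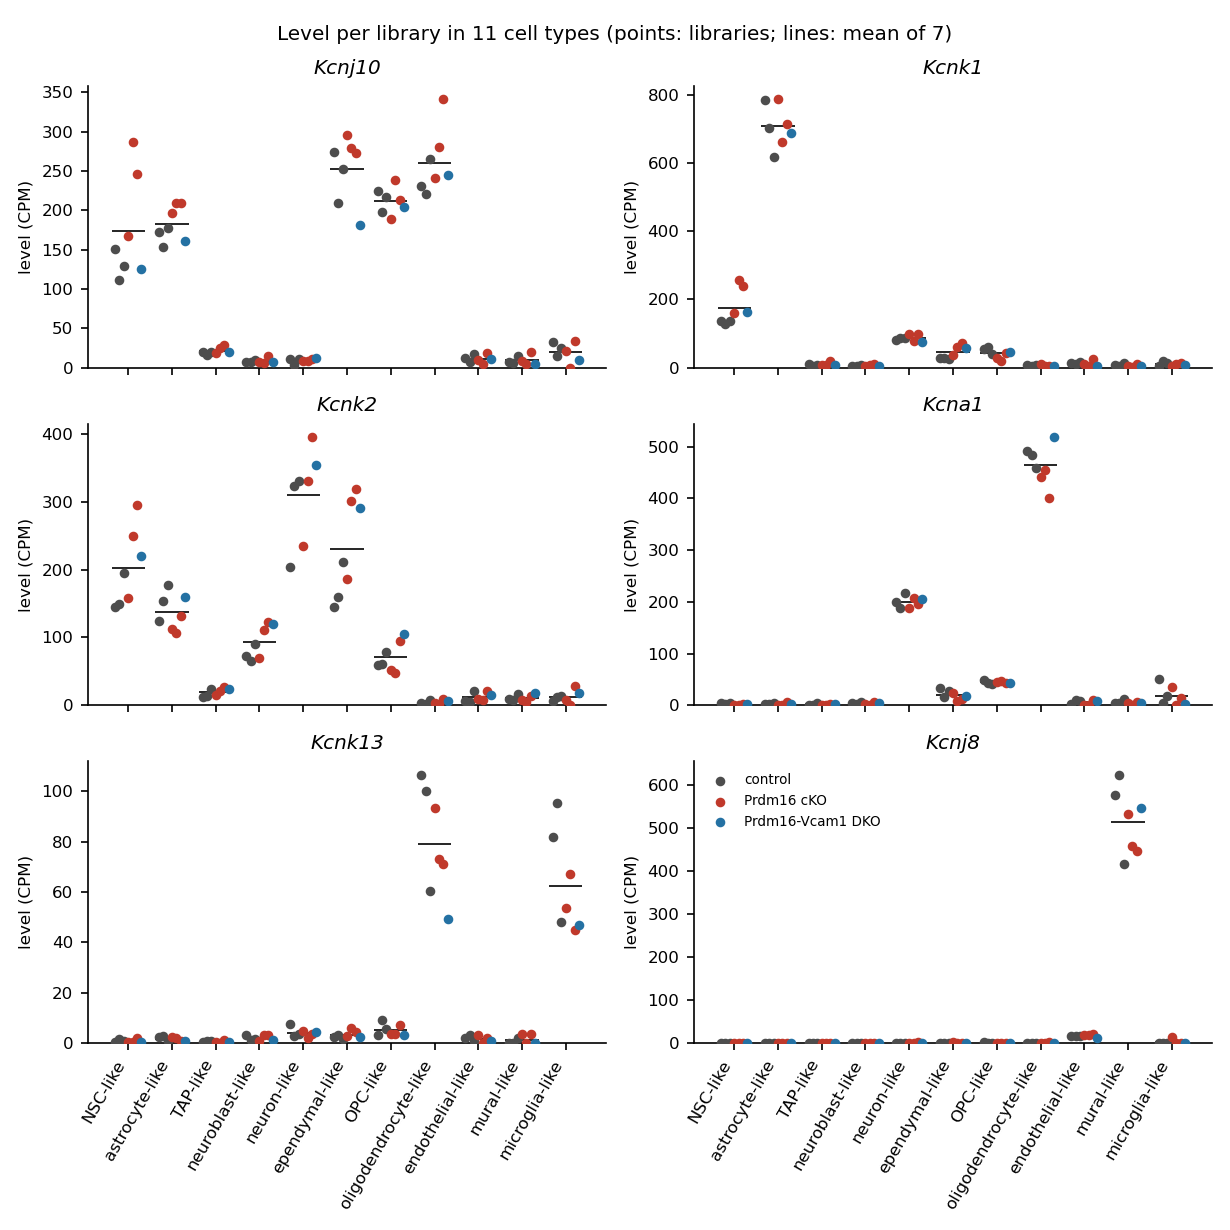
Level (CPM) of Kcnj10, Kcnk1, Kcnk2, Kcna1, Kcnk13 and Kcnj8 in each of the 7 libraries (points, coloured by genotype) for the 11 cell types, with the mean of 7 libraries as a line. Kcnj8 is led by mural-like cells (mean 514 CPM), with a mean of 17.0 CPM in endothelial-like cells, whereas Kcnj10 is high in 5 glial types, each of which overlaps with the next in order.

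Of the voltage-gated genes, Kcna1 and Kcna6 encode Kv1.1 and Kv1.6, subunits of the Shaker family. Kcna1 was at 401.7, 459.7 and 518.7 CPM in oligodendrocyte-like cells, 188.0, 200.6 and 218.0 in neuron-like cells and 41.9, 43.4 and 48.6 in OPC-like cells, and no pair of these overlapped. Kcna6 was at 70.6, 79.5 and 97.7 CPM in oligodendrocyte-like and 19.7, 38.8 and 56.7 in neuron-like cells, again without overlap. Kcna2 (Kv1.2) had another order, with means of 144.4 CPM in OPC-like (126.4 to 167.9), 134.6 in astrocyte-like (110.6 to 162.9), 93.8 in neuron-like and 38.6 in oligodendrocyte-like cells. The first 2 overlapped. Within the OPC-like class, as given below, Kcna2 was higher in the finer cluster led by Bmp4 and Gpr17. In the finer cluster led by Pdgfra its mean lay below the astrocyte-like range.

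Kcna4 (Kv1.4, A-type current), Kcnd2 (Kv4.2, A-type current of dendrites) and Kcnq3 (an M-current subunit) were highest in neuron-like cells. Kcna4 was at 182.7, 220.0 and 244.9 CPM there, with 4.94 CPM in the second type, OPC-like cells. Kcnd2 was at 165.3, 206.2 and 279.9 CPM, with 69.3 in OPC-like cells. In both genes the neuron-like libraries lay above those of every other type, although for Kcnd2 a finer cluster of the OPC-like class, led by Pdgfra, reached 139.6 to 199.9 CPM and overlapped with them. Kcnq3 reached 93.7, 163.1 and 305.0 CPM in neuron-like cells, and its means in OPC-like (84.7), astrocyte-like (81.8) and oligodendrocyte-like cells (78.4) were close to each other. The auxiliary gene Kcnab1, a beta subunit of Kv1 channels, was also highest in neuron-like cells, at 268.8, 324.3 and 383.0 CPM, with 23.2 in mural-like cells. The remaining type-led voltage-gated genes were low. Kcnd1 (Kv4.1) was at 20.8 CPM in microglia-like cells (16.8 to 24.4), Kcnc4 (Kv3.4) at 14.02 in astrocyte-like cells (9.13 to 19.4), Kcnh8 at 13.4 in OPC-like cells (6.24 to 21.8) and Kcnq1 (Kv7.1) at 10.6 in endothelial-like cells (7.32 to 13.4). Kcnh8 overlapped with neuroblast-like cells (8.22 to 17.3), and Kcnd1 did not overlap with its second type, astrocyte-like cells (2.16 to 9.002). Kcna3, a channel of immune cells, had 1 UMI in all microglia-like cells.

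Among calcium-activated genes, Kcnma1, the pore of the BK channel, was neuronal at 141.2, 185.6 and 273.6 CPM. Its accessory subunit Kcnmb1, known from smooth muscle, was highest in ependymal-like cells, at 94.2, 149.0 and 164.3 CPM, and was at 37.3, 51.7 and 66.7 in mural-like cells. The ependymal-like libraries all lay above the mural-like ones. The mural-like class also held pericytes, and the mean of its finer smooth muscle-like cluster, given below, lay within the ependymal-like range. Kcnmb4, the neuronal accessory subunit, was highest in OPC-like cells at 47.7 CPM (29.4 to 57.9). Of the SK channels, which follow calcium entry, Kcnn2 was level between NSC-like (58.4, 85.7 and 125.1 CPM) and astrocyte-like cells (62.0, 92.4 and 132.2), and Kcnn3 was at 70.4 CPM in ependymal-like, 54.2 in astrocyte-like and 42.8 in neuron-like cells. Kcnt2, a sodium-activated channel, stayed below 10 CPM, with 9.59 CPM in neuron-like cells. The auxiliary gene Kcne4, an accessory subunit that inhibits some Kv channels, was at 61.7, 107.7 and 217.8 CPM in mural-like cells and a mean of 3.18 CPM in the second type. Kcne1l (also called Kcne5) was at 107.1 CPM in NSC-like, 84.5 in TAP-like and 44.1 in astrocyte-like cells.

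The genes most like 3 of the members were taken by Pearson correlation of log2(CPM + 1) over the 11 type means, among 12246 genes, and are a description without a test. Kcnj8 was most like Abcc9 (r = 0.997), which encodes the sulfonylurea receptor that pairs with it, and then Vtn (0.997), Slc6a20a, Higd1b and Mrvi1, of which Vtn and Higd1b were among the markers used to name pericytes. Kcnj10 was most like Jtb (0.98), Commd6 (0.97), Ccdc13 (0.97), Gsto2 (0.96) and Metrn (0.96), and Kcnk13 most like Evi2a (0.98), Trf (0.96), Stard3, Bin1 and Hmox2 (all 0.94). The 11 points share the 7 libraries.

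Related or neighbouring cell types were then compared in 7 steps. In each library the sums of both types were tested against each other with the library as a block, by edgeR's quasi-likelihood test over all genes with Benjamini-Hochberg adjustment, and a gene was called at an adjusted p under 0.05. Such steps change most genes, so the share of all tested genes called is given beside each count. In the 7 steps between 63.2% and 90.6% of the tested members were called, against 51.2% to 81.8% of all genes. Log2 differences are after TMM scaling, while CPM are shares of the total. Over genes at 10 CPM in both types the first minus the log2 ratio of mean CPM had a median of 0.58 from OPC-like to oligodendrocyte-like cells, 0.15 and 0.14 from NSC-like to astrocyte-like and TAP-like cells and -0.23 into neuron-like cells, and lay within 0.1 of 0 in the other 3 steps. Of the called members, Kcnq3 from OPC-like to oligodendrocyte-like cells had the opposite direction in CPM.

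Astrocytes and NSCs of the adult V-SVZ are related glia. From NSC-like to astrocyte-like cells 14 of 38 tested members were higher and 10 lower, against 29.0% and 29.2% of all genes, of which 58.2% were called. The median absolute log2 difference was 0.87 over the members and 0.35 over all genes. Kcnk1 was higher in astrocytes by 2.22 (SE 0.19, adjusted p = 4.3e-05) and Kcnq3 by 2.15 (SE 0.14), both in 7 of 7 libraries. Kcnq3 ranged widely between libraries, from 28.1 to 170.1 CPM in astrocyte-like and from 5.13 to 54.6 in NSC-like cells, and its 2 highest libraries were cKO 2 and cKO 3 in both types. Kcna2 was higher by 1.03, with 61.7 to 87.2 CPM in NSC-like cells against 110.6 to 162.9. Kcnn3 (0.89, adjusted p = 0.011) and Kcna6 (0.66) were higher in 6 of 7 libraries. Kcne1l fell by 1.14 on the log2 scale and Kcnd3 by 0.51 (adjusted p = 0.0031), each in 7 of 7 libraries. For Kcnd3 the direction turned when each cell was assigned by its own markers (0.46, adjusted p = 0.24), and the gene did not pass with equal totals (adjusted p = 0.068). Kcnj10 (0.29, adjusted p = 0.11), Kcnk2 (-0.36, adjusted p = 0.17) and Kcnn2 (0.10, adjusted p = 0.23) did not pass.

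TAPs are the dividing progeny of NSCs. From NSC-like to TAP-like cells 28 of 55 tested members were lower, 15 higher and 12 not called, and 81.8% of all genes were called (40.8% higher and 41.1% lower). The members' share, 78.2%, was no larger than that of all genes, while their median absolute log2 difference was 1.44 against 0.83. The channels that led in NSC-like cells were among the lower ones. Kcnk1 went from 160.1 (median) to 8.599 CPM, a log2 difference of -4.03 (SE 0.13, adjusted p = 1.2e-10). Kcnk2 changed by -3.20 (SE 0.07) and Kcnj10 by -2.82 (SE 0.09), and for all 3 genes the 7 TAP-like libraries lay below the 7 NSC-like ones. Kcna2 was lower too (-2.67). By family 4 of 7 tested inward rectifiers and 5 of 8 tandem-pore genes were lower, and 0 and 2 were higher. Kcnh7, an ERG-family channel, was higher by 0.75 in 7 of 7 libraries, and Kcnc1 (Kv3.1) by 0.86 in 5 of 7 (adjusted p = 0.041). With equal totals Kcnc1 did not pass. Kcne1l was little changed, at 65.6 to 112.2 CPM against 85.8 to 146.4 (-0.20, adjusted p = 0.0023).

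From TAP-like to neuroblast-like cells, the migrating young neurons, 38 of 55 tested members were higher and 7 lower, and 76.9% of all genes were called (39.3% higher and 37.6% lower). The median log2 difference of the members was 1.12. Kcnd3 (Kv4.3) was at 1.46, 2.77 and 7.47 CPM in TAP-like cells and 22.0, 35.4 and 66.2 in neuroblast-like cells, higher by 3.30 (SE 0.11, adjusted p = 8.0e-15) without overlap. Kcnk2 rose by 2.19, Kcnb2 (Kv2.2) by 1.39, Kcnmb4 by 1.23 and Kcnc1 by 0.96, each in 7 of 7 libraries. Kcne1l was the gene that fell furthest among those named, from 65.6, 83.0 and 112.2 CPM to 4.97, 7.14 and 11.3 (-3.45, SE 0.08). Of the voltage-gated members 19 of 27 tested were higher and 2 lower.

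From neuroblast-like to neuron-like cells 47 of 66 tested members were higher, 12 lower and 7 not called, and 75.9% of all genes were called (37.4% higher and 38.6% lower). The median log2 difference was 2.45. Of 34 tested voltage-gated members 26 were higher. Kcna4 went from 0.99, 2.49 and 4.76 CPM to 182.7, 220.0 and 244.9 (6.28, SE 0.19, adjusted p = 1.8e-12). Kcnh1 (Kv10.1) was higher by 6.04, Kcnj2 by 5.97, Kcnj4 by 5.86 and Kcnq5 (an M-current subunit) by 5.61, all in 7 of 7 libraries. Among the lower members, Kcnd3 was lower by 0.84 in neuron-like cells (adjusted p = 3.3e-04), Kcnk10 by 3.49, Kcnn2 by 0.97 and Kcnh7 by 0.88, while Kcnc1 (adjusted p = 0.99) and Kcnb2 (0.08, adjusted p = 0.84) did not pass. The neuron-like cells came mostly from a cluster led by Penk, a marker of striatal projection neurons, whereas V-SVZ neuroblasts mature in the olfactory bulb, so this step compares neighbouring cells and does not follow a lineage.

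**Figure D3:**
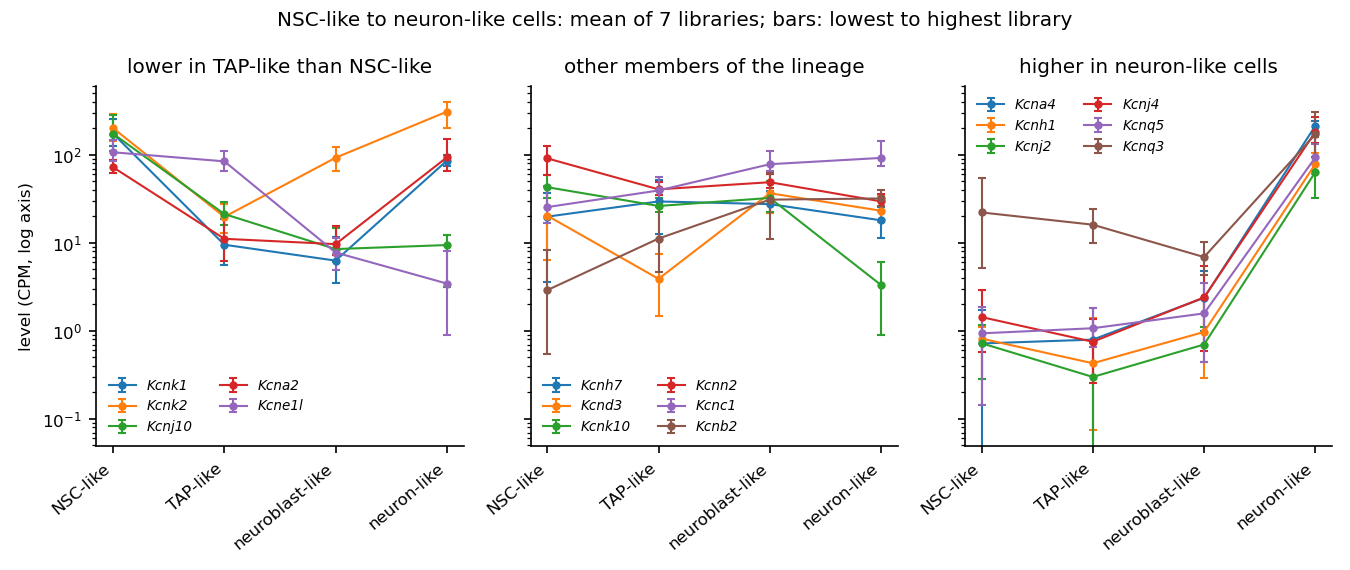
Level of 17 members from NSC-like through TAP-like and neuroblast-like to neuron-like cells, on a log axis in CPM. Points are means of 7 libraries and bars run from the lowest to the highest library, clipped at the axis floor where a library is at 0. Kcnk1, Kcnk2 and Kcnj10 drop in TAP-like cells, Kcnd3 rises in neuroblast-like cells, and Kcna4, Kcnh1, Kcnj2, Kcnj4 and Kcnq5 appear in neuron-like cells.

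Ependymal cells are the ciliated lining of the ventricle and, like NSCs, derive from radial glia. From NSC-like to ependymal-like cells 24 of 47 tested members were higher and 14 lower, against 35.0% and 38.6% of all genes, of which 73.7% were called. Kcnmb1 was at 0.285, 0.625 and 1.19 CPM in NSC-like cells and 94.2, 149.0 and 164.3 in ependymal-like cells, higher by 7.47 (SE 0.16, adjusted p = 2.5e-13). Kcnj16 went from 1.56, 4.63 and 12.8 to 57.0, 65.9 and 73.3 CPM (3.697, SE 0.40), also without overlap. Kcnn3 was higher by 1.11 and Kcnj10 by 0.63 (adjusted p = 0.0011, 6 of 7 libraries). Kcnn2 was lower by 3.36, Kcnk10 by 3.25, Kcne1l by 2.97, Kcna2 by 2.25 and Kcnk1 by 1.98, each in 7 of 7 libraries.

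In the oligodendrocyte lineage 9 of 53 tested members were higher in oligodendrocyte-like than in OPC-like cells and 39 were lower, against 37.9% and 36.9% of all genes, of which 74.8% were called. The median log2 difference of the members was -2.15. Of 22 tested voltage-gated members 3 were higher and 19 lower. Kcna1 went from 41.9, 43.4 and 48.6 CPM to 401.7, 459.7 and 518.7 (3.97, SE 0.08, adjusted p = 2.6e-19), Kcna6 was higher by 2.32, Kcnk13 by 4.49 and Kcnj2 by 4.50. Kcnj10 was higher by 0.87 (SE 0.07) in 7 of 7 libraries, while the log2 ratio of mean CPM was 0.30. The difference was 1.46 and 1.41 at the finer resolutions of 0.3 and 1.0. At both, newly formed oligodendrocytes were kept apart from the OPC-like class, which in control 1 went from 301 to 154 cells. The Kv4 gene Kcnd2 went from 58.9, 68.5 and 86.9 CPM to 0, 1.22 and 4.34 (-4.71, SE 0.30), and Kcnk2 (-3.32), Kcnk1 (-2.15) and Kcna2 (-1.31) were lower in 7 of 7 libraries. With cells assigned by their own markers the Kcna2 difference was 0.078 (adjusted p = 0.48). That assignment also kept newly formed oligodendrocytes apart and left 137 OPC-like cells in control 1. Genes for Kv4 partners moved with Kcnd2, namely Dpp6 (-5.54) and Kcnip3 (-5.22).

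In the vascular wall 10 of 22 tested members were higher in mural-like than in endothelial-like cells and 4 lower, with 25.0% and 26.2% of all genes called in those directions. Kcnj8 was higher by 4.84 (SE 0.10, adjusted p = 8.9e-19), and its partner Abcc9, at 641.3 against 31.01 CPM, by 4.32. Kcnk3 (TASK-1, a background channel of vascular muscle) was higher by 5.50, Kcne4 by 5.31, Kcnj12 by 5.13 and Kcnmb1 by 4.61, all in 7 of 7 libraries. Kcnj2 was the reverse, at 13.98, 29.5 and 43.7 CPM in endothelial-like and 7.84, 10.4 and 20.0 in mural-like cells (-1.32, SE 0.19, adjusted p = 7.4e-06).

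A finer clustering split the mural cells, and its levels are given as a description with genes chosen after their values were seen. A pericyte-like cluster led by Vtn and Kcnj8 itself (935 cells) had 940.7 CPM of Kcnj8, a second one led by Rgs5 (340 cells) 320.0, and a smooth muscle-like cluster led by Myh11 (193 cells) 26.8. The Kcnj8 libraries of these clusters did not overlap (804.1 to 1087, 252.2 to 402.3 and 12.5 to 51.0). Kcnk3 had the other order, with 29.8 CPM in the first pericyte-like and 135.6 in the smooth muscle-like cluster, and so had Kcnab1 (6.56 against 140.6), Kcna5 (0.509 against 44.8) and Kcnmb1 (62.0 against 124.3). Kcnj12 was at 59.3 and 71.0 CPM, which overlapped. Kcne4 was at 194.7 CPM in the first pericyte-like cluster and 52.6 in the smooth muscle-like one, with overlapping libraries. Within the endothelial-like cells Kcnj2 was at 49.9 CPM in a cluster led by Gkn3 and Bmx and 29.1 in a cluster led by Slc38a5, and these overlapped.

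**Figure D4:**
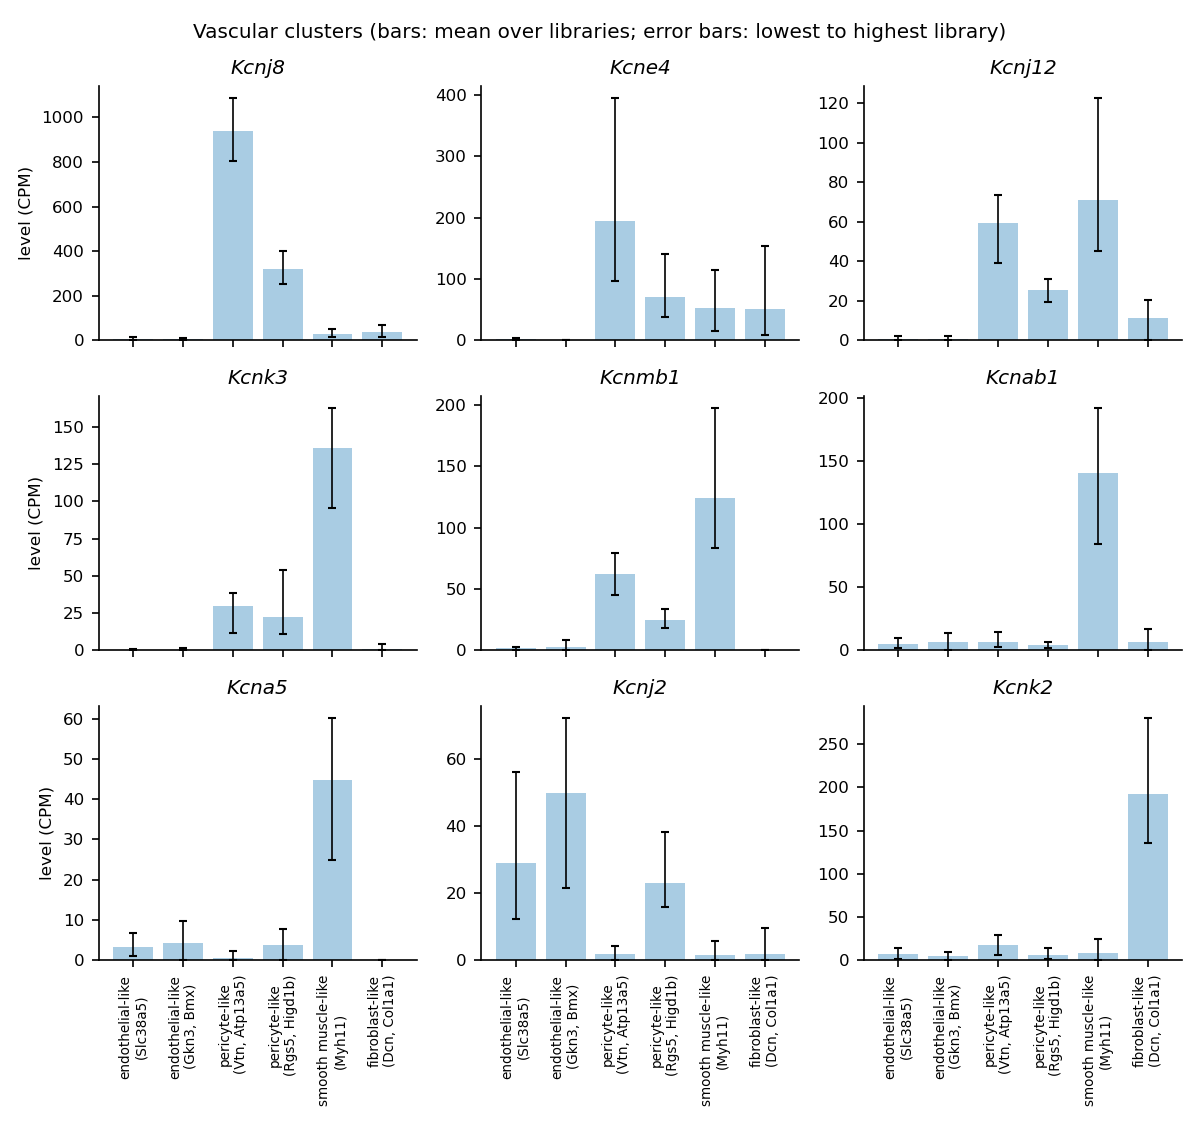
Level (CPM) of 9 members in 6 vascular clusters of the finer clustering. Bars are means over libraries and error bars run from the lowest to the highest library, with the leading genes of each cluster in parentheses. Kcnj8 is highest in the pericyte-like clusters (940.7 and 320.0 CPM), while Kcnk3, Kcnab1 and Kcna5 are highest in the smooth muscle-like cluster.

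The finer clustering also split the neurons and the OPC-like class. A neuron-like cluster led by Sst, Npy and Lhx6 (195 cells, 6 libraries) had 342.3 CPM of Kcnc1, against 68.3 in the Penk and Drd2 cluster and 74.8 in the Drd1 cluster, and 58.5 CPM of Kcnc2 against 0.951 and 1.17. Both are Kv3 genes of fast-spiking cells. Kcnd3 was at 97.5 CPM there against 21.5 and 11.5, while Kcnj4 (26.4 against 199.7 and 188.8) and Kcnh3 (1.30 against 60.4 and 63.4) were low. None of these ranges overlapped with that of the Sst cluster. In the oligodendrocyte lineage the cluster led by Pdgfra had 170.4 CPM of Kcnd2 and 103.2 of Kcnmb4, and the cluster led by Bmp4 and Gpr17 had 8.03 and 12.8. Kcnj16 fell the same way, from 53.5 to 5.25 CPM. Kcnj12 was found in the second cluster (51.3 CPM, against 0.516), and Kcna2 was higher there (188.2 against 80.6). All of these differed without overlap.

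Genes for partners of potassium channels (sodium pump subunits, chloride cotransporters, sulfonylurea receptors, Kv4 partners and others, 36 in all) were counted in the same tests, beside the shares of all genes called. From NSC-like to TAP-like cells 9 of 31 tested were higher and 17 lower (81.8% of all genes), and from NSC-like to astrocyte-like cells 8 and 10 of 27 (58.2%). Into neuroblast-like cells 18 of 33 were higher and 11 lower (76.9%), and into neuron-like cells 16 of 33 were higher and 7 lower (75.9%), among them Kcnip4 (5.87), Kcnip2 (5.65) and the potassium-chloride cotransporter Slc12a5 (5.42). In ependymal-like cells 8 of 28 were higher and 17 lower (73.7%), in oligodendrocyte-like cells 12 and 18 of 30 (74.8%), and in mural-like cells 9 and 6 of 22 (51.2%).

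The study's main comparison sets Prdm16 cKO against control cells, and it was made within each type over the 3 libraries of each group, with the same test over all genes. Over the 11 types 427 pairs of a member and a type were tested. A single one passed, Kcnd3 in astrocyte-like cells, where 1.16% of all genes were called, against 0.164% of all pairs of a gene and a type. At an unadjusted p under 0.05, 48 pairs were higher and 23 lower in the cKO, against 3.46% and 2.85% of all pairs. In 36 pairs all cKO libraries lay above all control libraries (3.99% of all pairs) and in 38 all lay below (7.24%). With 3 libraries against 3 an exact permutation test cannot go below p = 0.10.

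Kcnd3 encodes Kv4.3, an A-type potassium channel. In astrocyte-like cells it was at 7.12, 4.32 and 3.63 CPM in controls 1 to 3 and at 8.12, 28.8 and 23.0 in cKO 1 to 3. All cKO libraries lay above all controls, with cKO 1 close to control 1. The log2 difference was 1.98 (SE 0.42, adjusted p = 0.037, edgeR), and the DKO was at 17.3 CPM. In the same cells the summed markers of astrocytes (4363 to 4722 CPM in the controls, 5252 to 5478 in the cKO, 3 of 6 higher) and of endothelial cells (5.87 to 20.6 and 27.1 to 52.2, 3 of 5 higher) were higher in the cKO without overlap. Those of neuroblasts (111.5 to 130.9 and 63.9 to 91.4, 0 of 6 higher) and of OPCs (32.6 to 51.6 and 13.5 to 28.4, 0 of 5 higher) were lower without overlap. So were those of fibroblasts (26.1 to 35.8 and 4.67 to 18.9, 0 of 4 higher). The part of these shifts was not tested, and with cells assigned by their own markers the Kcnd3 difference was 2.42 (adjusted p = 0.014). That assignment took the astrocyte-like cells of cKO 2 from 92 to 256 and those of cKO 3 from 296 to 719. NSC-like cells of the same libraries went from 213 to 71 and from 675 to 211. Their Kcnd3 levels, given below, were above those of the astrocyte-like cells, and the part of the moved cells was not tested. Without cKO 2 or cKO 3, or without control 2 or control 3, the gene no longer passed. Within the libraries processed by the same version of the counting software another measure was taken, the log2 ratio of mean CPM with 1 CPM added to each mean. It was 1.53 (version 6.0.1, 2 libraries a group) and 2.38 (version 6.1.1, 1 a group).

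In NSC-like cells no member passed by edgeR, where 0.241% of all genes did. At an unadjusted p under 0.05, 16 of 46 members were higher and 4 lower, against 8.53% and 5.25% of all genes. Libraries did not overlap for 13 members that were higher, against 6.89% of all genes, and for 6 that were lower, against 10.6%. The median log2 difference was 0.39 over the members and near 0 over all genes. DESeq2, run on 21814 genes without the filter on low counts that left 14542 for edgeR, called 12 members in these cells, all higher, and called 2.21% of its genes higher and 0.353% lower. In 1 model of both types with a term for genotype by type, added after the data had been seen, the cKO effect differed between NSC-like and TAP-like cells for 1 of 60 members, where 0.46% of all genes passed, between NSC-like and neuroblast-like cells for 2 of 62, where 0.241% did, and between NSC-like and astrocyte-like cells for 2 of 41, where 1.79% did.

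Kcnj10 was at 151.0, 111.4 and 129.7 CPM in NSC-like cells of the controls and 167.1, 286.8 and 246.6 in cKO 1 to 3 (0.93, SE 0.21, adjusted p = 0.084). Kcnk1 was at 137.2, 127.2 and 135.6 CPM and 160.1, 256.4 and 240.9 (0.81, SE 0.20, adjusted p = 0.092). In both genes the groups did not overlap and cKO 1 was nearest to the controls. Markers of other types moved in the same cells: 6 astrocyte markers, of which 3 were higher in the cKO, summed to 1451 to 1487 CPM in the controls, 1598 to 2255 in the cKO and 1569 in the DKO, and 6 neuroblast markers, all lower, to 539.3 to 672.3, 215.8 to 444 and 520.1. Pericyte markers (128.8 to 148.8 CPM in the controls and 79.2 to 98.4 in the cKO, 0 of 6 higher) and fibroblast markers (25.2 to 35.5 and 13.2 to 21.7, 0 of 4 higher) were also lower without overlap. When each cell was assigned by its own markers instead of by cluster, the NSC-like cells of cKO 2 went from 213 to 71 and its astrocyte-like cells from 92 to 256, and in cKO 3 from 675 to 211 and from 296 to 719. The difference was then 0.21 for Kcnk1 (adjusted p = 0.85) and 0.51 for Kcnj10 (adjusted p = 0.66). The part of cell assignment was not tested further. Kcnd3, at 8.97, 6.42 and 8.43 CPM and 15.0, 41.7 and 43.5 (2.15, SE 0.42, adjusted p = 0.087), and Kcnq3, at 5.83, 5.13 and 7.61 and 11.5, 54.6 and 53.3 (2.73, SE 0.66, adjusted p = 0.16), had the same order of libraries. Kcnj16, at 2.85, 2.99 and 1.56 CPM and 4.88, 12.8 and 11.3 (2.10, SE 0.42, adjusted p = 0.058), was low in both groups. For Kcnk10, the cKO libraries (38.04, 32.8 and 37.1 CPM) lay below the controls (59.3, 41.9 and 42.8), with a log2 difference of -0.31 (SE 0.16, adjusted p = 0.44).

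The DKO library was at 125.5 CPM for Kcnj10 and 164.1 for Kcnk1 in NSC-like cells, the first within the control range and the second above it. It was at 18.7 CPM for Kcnd3, 17.6 for Kcnq3 and 4.63 for Kcnj16, between the highest control and cKO 2 in all 3. Of the 46 members tested in NSC-like cells the DKO lay above the control range for 18, below it for 16 and within it for 12, where 19.0% and 33.8% of all genes lay above and below it. A single library gives no replicate check.

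Of the 20 members at an unadjusted p under 0.05 in NSC-like cells, cKO 1 was the cKO library nearest to the control mean for 19, and so it was for 87.4% of all genes at that threshold. The count was 11 of 11 in TAP-like (77.7% of all genes), 10 of 11 in neuroblast-like (80.3%), 9 of 12 in astrocyte-like (72.2%), 7 of 9 in ependymal-like (72.1%) and 0 of 3 in OPC-like cells (37.9%). cKO 2 and cKO 3 are the libraries with fewer barcodes passing the filters. The transcript Gm42418, which overlaps ribosomal RNA, was at 3103, 3802 and 35241 CPM in NSC-like cells of the controls, 13938, 25415 and 52354 in the cKO and 17789 in the DKO. The part of these library differences in the results was not tested. Without cKO 1 the count of calls over all types was 36, against 2.34% of all pairs, of which 21 were in NSC-like cells (16 higher and 5 lower, against 7.05% and 4.37% of all genes), and without cKO 2 or cKO 3 it was 0.

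**Figure D5:**
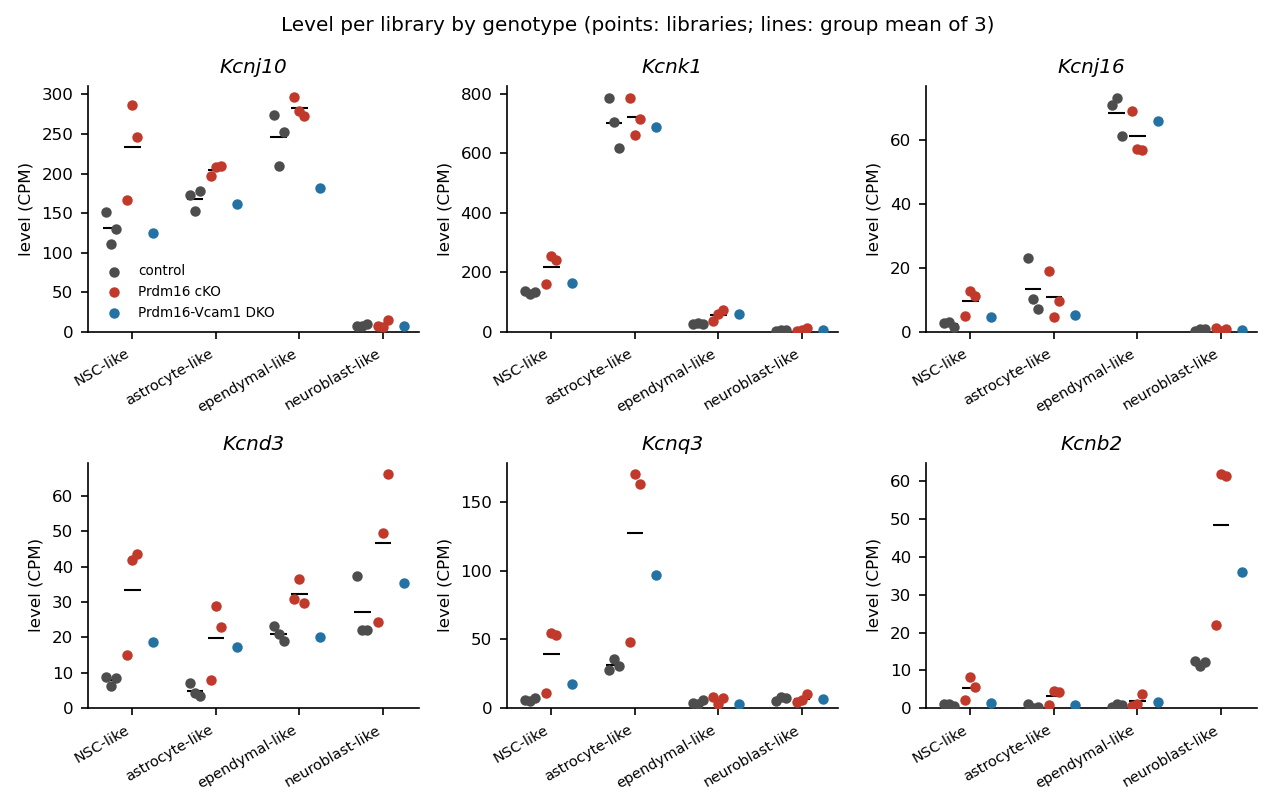
Level (CPM) of Kcnj10, Kcnk1, Kcnj16, Kcnd3, Kcnq3 and Kcnb2 by genotype in NSC-like, astrocyte-like, ependymal-like and neuroblast-like cells. Points are libraries (3 control, 3 Prdm16 cKO, 1 Prdm16-Vcam1 DKO) and lines are group means of 3. In NSC-like cells the cKO points lie above the control points for all 6 genes, with 1 cKO point close to the controls.

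In astrocyte-like cells Kcnq3 was at 28.1, 35.8 and 30.95 CPM in the controls and 48.2, 170.1 and 162.7 in the cKO, with the DKO at 96.7. The groups did not overlap, and the difference did not pass (1.99, SE 0.50, adjusted p = 0.22). Kcnk1, the leading channel of these cells, was at 786.6, 703.9 and 618.7 CPM against 787.2, 661.6 and 714.8 (0.05, SE 0.18), with full overlap. Kcnj10 was at 172.7, 152.9 and 177.9 CPM against 196.6, 208.8 and 209.1 (0.29, SE 0.17, adjusted p = 0.61), and Kcne1l at 40.2, 39.7 and 37.0 against 45.1, 58.5 and 48.7 (0.37, SE 0.17, adjusted p = 0.47). Both differed without overlap. Of 32 members tested there, 8 were higher and 4 lower at an unadjusted p under 0.05, against 5.07% and 4.89% of all genes.

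In ependymal-like cells 0.188% of all genes and no member passed. At an unadjusted p under 0.05, 6 of 45 members were higher and 3 lower, against 4.31% and 4.1% of all genes. Kcnk1 was at 27.4, 28.3 and 26.6 CPM in the controls and 37.9, 59.7 and 73.0 in the cKO (1.13, SE 0.25, adjusted p = 0.15), without overlap. Kcna2 was at 9.21, 10.5 and 10.4 against 16.9, 17.3 and 30.98 (1.21, SE 0.29, adjusted p = 0.17) and Kcnd3 at 23.2, 21.0 and 18.9 against 30.7, 36.4 and 29.8 (0.67, SE 0.17, adjusted p = 0.20). Kcnmb1, the ependymal-led gene, was at 154.1, 149.8 and 164.3 CPM against 149.0, 119.3 and 94.2 (-0.33, SE 0.16, adjusted p = 0.64), and all cKO libraries lay below the controls. In the same cells the summed smooth muscle markers were higher in the cKO (472.8 to 682.9 CPM against 721.1 to 1032, 2 of 4 higher) and fibroblast markers lower (37.4 to 41.2 against 15.2 to 30.4, 0 of 4 higher), both without overlap, and their part in the ependymal-like values was not tested. Kcnj16 (-0.09, SE 0.14) and Kcnj10 (0.26, SE 0.15) overlapped. Kcnj13, which is known from choroid plexus, was at 18.1, 6.28 and 3.25 CPM against 2.01, 1.79 and 0.492, with 14.9 in the DKO (-2.69, SE 0.76, adjusted p = 0.30). Over 19 alternatives its difference ranged from -5.47 (a mitochondrial limit of 5%) to -1.57 (without control 1), and it passed in 4 of them: DESeq2, no filter on low counts, the replicate block and the Cell Ranger version as a block. The summed choroid plexus markers Ttr, Folr1 and Kl in the same cells were at 492 to 2375 CPM in the controls, 140 to 635 in the cKO and 3203 in the DKO, and their part in the Kcnj13 values was not tested.

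In neuroblast-like cells Kcnb2 was at 12.6, 11.2 and 12.4 CPM in the controls, 22.1, 61.8 and 61.3 in the cKO and 35.9 in the DKO (2.03, SE 0.38, adjusted p = 0.17), without overlap. This class joined a main cluster with a smaller one led by Neurod1 and Eomes, which held 5 to 17 cells per control library, 30 to 97 per cKO library and 51 in the DKO. Kcnb2 was high in the smaller cluster, at 132.8, 166.9 and 161.6 CPM in the cKO libraries and 128.2, 105.6 and 8.08 in the controls, the last from 1 UMI in 14 cells. Without that cluster, an alternative chosen after seeing the data, it was at 11.4, 10.3 and 12.4 CPM in the controls, 17.2, 49.0 and 50.4 in the cKO and 32.4 in the DKO, and the log2 ratio of group means was 1.77 against 2.01 with it. Of 54 members tested, 8 were higher and 3 lower at an unadjusted p under 0.05, against 5.92% and 3.95% of all genes. In neuroblast-like cells summed TAP markers were at 75.1 to 86.3 CPM in the controls and 37.8 to 72.0 in the cKO (1 of 6 higher), without overlap. All 8 neuron markers were higher in the cKO, with overlapping sums (169.4 to 269.5 and 151.9 to 480.1 CPM). The part of these markers in the neuroblast-like values was not tested. In TAP-like cells the counts were 8 and 3 of 55, against 4.2% and 2.75%. Summed NSC markers in these cells were at 376.6 to 511.3 CPM in the controls and 629.5 to 1004 in the cKO (2 of 5 markers higher), without overlap, astrocyte markers were at 60.5 to 91.0 and 86.1 to 131.9 (5 of 6 higher), and their part in the counts was not tested.

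In the other 6 types 8 of 195 tested pairs passed an unadjusted p under 0.05, against 2.97% of all pairs. In neuron-like cells these were 2 of 59, in OPC-like cells 3 of 42, in oligodendrocyte-like, mural-like and microglia-like cells 1 each, and in endothelial-like cells 0 of 18. Endothelial cells, mural cells and microglia do not arise from radial glia. Of the partner genes Lgi1, whose protein is part of a complex with Kv1 channels, was higher in cKO NSC-like and neuroblast-like cells, and Fxyd6, a sodium pump modulator, was higher in cKO astrocyte-like cells, at an adjusted p under 0.05. These were 1 of 29 partners tested in NSC-like cells (0.241% of all genes called), 1 of 33 in neuroblast-like and 1 of 24 in astrocyte-like cells (1.16%). The share of all genes is not given for neuroblast-like cells alone, and over the 11 types it was 0.164% of all pairs.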

How the data were processed

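Lateral V-SVZ walls were dissociated and profiled with the 10x 3′ v3.1 chemistry, which counts transcripts by UMI. The authors made the deposited counts, 1 matrix per library with no normalization, with Cell Ranger on mm10 (GRCm38). The submitters' processing notes name version 6.1.1, whereas the file headers name 6.0.1 for control 1, control 2, cKO 1 and cKO 2 and 6.1.1 for the others. Both versions thus hold control and cKO libraries, split by replicate number, whereas the DKO was processed with 6.1.1 only, so its values cannot be told apart from the version. Total counts were 45758003 to 141353017 UMIs per library. Intervals and zeros cover counting error only.

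Cells with 500 to 7000 genes and at most 10% mitochondrial UMIs were kept. All Kcn genes were removed, and the libraries were integrated in Seurat 5.3.0 (anchors, 2000 features, 30 components) and clustered at a resolution of 0.15. Naming a cluster took 3 or more markers of that type, each detected in 10% of its cells and raised by 1 on the log2 scale. A cluster of 3412 cells with erythroid and astrocyte genes and an unnamed cluster of 1670 cells were not compared. Nor was a cluster of 80 cells that the rule named T cell and that also held B cell genes. Scrublet (scanpy 1.11.5) marked 2.41% of cells as doublets, which stayed in except in an alternative. Free RNA was not removed.

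Counts were summed per library and type (at least 10 cells) and tested over all genes with edgeR 4.0.16 (filterByExpr, TMM, quasi-likelihood, robust), in 1 fit per type over the 3 groups, or with the library as a block between types. Adjusted p-values are Benjamini-Hochberg over all genes tested. The scripts were tested on simulated data. Positions and coding sequences came from GENCODE vM21. Alternatives were DESeq2 1.42.0, other size factors, no filter, equal totals, a mitochondrial limit of 5%, no doublets, resolutions of 0.3 and 1.0, a marker gate per cell, no abundant transcripts, blocks, and each library left out.

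Members and gene lists were chosen with earlier results of these data known. The genes named were those called between genotypes, the 3 highest of each type among members led by it, the 5 largest changes each way per step at a mean log2 CPM of at least 4, the 3 largest differences each way without overlap between genotypes in NSC-like, astrocyte-like and ependymal-like cells, well-known members and the 5 genes most like Kcnj10, Kcnj8 and Kcnk13. Kcna5, Kcnc2, Kcnh3, Kcnj13, Kcnj9 and the split of fine clusters were chosen after their values were seen. A few genes that this rule takes are not reported here. Same-numbered control and cKO libraries deviated together (every correlation of their deviations over 0.1) in oligodendrocyte-like, endothelial-like and mural-like cells, where the replicate block gave no call among the members, as the fit without it.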

Additional observations from a re-analysis of the deposited data

Results flagged for a closer look

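The following tests were run after the data had been seen. A difference between cell types in the size of the cKO effect was tested in 1 model of library sums with a term for genotype by type (edgeR, with the library as a block), for NSC-like cells against 5 other types. Of 41 members tested against astrocyte-like cells 2 passed, where 1.79% of all genes did. The effect on Kcnk2 was more positive in NSC-like cells by 0.93 on the log2 scale (SE 0.20, adjusted p = 0.042), with a difference of 0.61 in the first type and -0.37 in the second. The effect on Kcne1l was more negative in NSC-like cells, by -0.58 (SE 0.16, adjusted p = 0.049), with -0.25 against 0.37. Neither gene passed within a type.

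Against TAP-like cells 1 of 60 members passed, where 0.46% of all genes did. The effect on Kcnq3 was larger in NSC-like cells by 1.96 (SE 0.33, adjusted p = 0.041), with 2.73 in NSC-like and 0.57 in TAP-like cells. Against neuroblast-like cells 2 of 62 passed, where 0.241% of all genes did. These were Kcnq3 again, by 2.58 (SE 0.37, adjusted p = 0.017), and Kcnd3, by 1.30 (SE 0.22, adjusted p = 0.032). No member passed against ependymal-like (55 tested, 12 at an unadjusted p under 0.05, as were 11.7% of all genes) or endothelial-like cells (54 tested, 8, and 8.24% of all genes). In NSC-like cells the Kcnq3 and Kcnd3 levels of cKO 2 and cKO 3 lay further from the controls than that of cKO 1, and the part of those libraries was not tested.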

How the results depend on the processing

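The count of members called between cKO and control libraries, 1 by edgeR, depended on the processing. It was 19 with DESeq2 (18 higher), 23 with no filter on low counts, 17 with the replicate block (16 higher), 4 with the Cell Ranger version as a block, 4 at a resolution of 1.0, 4 with the marker gate, 2 with equal totals and 0 within the libraries of version 6.0.1, an alternative chosen after seeing the data. Leaving out a library gave 0 to 36, with 36 without cKO 1 and 0 without control 2, control 3, cKO 2 or cKO 3. Over all genes the calls were 232 (0.164% of all pairs), 1103 with DESeq2, 2065 with no filter, 1702 with the replicate block and 3339 (2.34%) without cKO 1. They were 400 with the version block, 247 at a resolution of 1.0, 371 with the marker gate, 243 with equal totals and 71 within version 6.0.1. Without control 2, control 3, cKO 2 or cKO 3 they were 45, 67, 76 and 122. The cause of these moves was not tested. Outside oligodendrocyte-like, endothelial-like and mural-like cells, the deviations of same-numbered control and cKO libraries correlated above 0.1 for replicates 1 and 3. For replicate 2 the correlation there lay between -0.10 and 0.07. Kcnd3 in astrocyte-like cells kept its direction in every alternative (log2 difference 1.57 to 2.42), and Kcnq3 passed in its place at a mitochondrial limit of 5%.

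Thinning both types to equal totals, which leaves fewer counts, lowered the members called from 24 to 14 (astrocyte-like against NSC-like), from 43 to 28 (TAP-like against NSC-like) and from 48 to 26 (oligodendrocyte-like against OPC-like), and Kcnd3 in the first (-0.43, adjusted p = 0.068) and Kcnc1 in the second step (0.73, adjusted p = 0.065) no longer passed. Otherwise the counts in the 7 steps stayed within 1.5 times their value under the alternatives run. Of the named genes, 2 turned with the marker gate per cell: Kcnd3 between astrocyte-like and NSC-like cells (0.46, adjusted p = 0.24) and Kcna2 between oligodendrocyte-like and OPC-like cells (0.078, adjusted p = 0.48). The gate and the finer resolutions kept newly formed oligodendrocytes apart from the OPC-like class, so the reference cells differed too. The median of all genes in a step lay up to 0.37 from 0 with DESeq2, which was run without the filter on low counts. It lay up to 0.059 from 0 in the main edgeR fit and at most 0.12 in the other edgeR fits. No fit within version 6.1.1 was possible, with 1 library a group. Low counts limit the 32 members under 10 CPM, and 3 libraries a group limit the comparison of genotypes.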

Other observations

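A cluster of 80 cells, too few per library for a comparison, carried T cell genes (Cd3d, Cd3g, Trbc2) and B cell and antigen-presentation genes (Igkc, Cd79a, Cd74) among its leading ones. The naming rule called it T cell. The calcium-activated channel gene Kcnn4 (KCa3.1, known from lymphocytes) was higher there than its mean in any of the 11 types. Its pooled level there was 54.6 CPM (exact Poisson interval 34.6 to 81.9, counting error only), against 29.0 CPM in ependymal-like cells, the highest of the 11 types. Kcnab2, a Kv1 beta subunit, was at 33.2 CPM in the same cells (18.2 to 55.8).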
